A study of Homo sapiens with 8 samples.

Results

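The comparison described here is that of irradiated with unirradiated HSC-3 cells, which accounts for 4 of the 8 libraries of the series. HSC-3 is an established cell line from an oral squamous cell carcinoma, a tumour of the epithelium that lines the mouth, and the labels class it as radioresistant. Irradiated cells received 8 Gy and were frozen 24 hours later (2 libraries). Unirradiated cells received 0 Gy and were handled on the same schedule (2 libraries). The other 4 libraries come from KOSC-2, a carcinoma line of the same class that the labels call radiosensitive, at the same doses and time. The stated aim of the series was a genome-wide comparison of lines that differ in radiosensitivity. HSC-3 is a single line. The sources used here do not say whether its 2 libraries per dose were grown as separate cultures, and every p below covers no more than the variation among these libraries, which may be technical. The epithelial identity of the cells was not checked against marker genes, since no gene annotation of the files' build was at hand.

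The assay was ATAC-seq, which uses the Tn5 transposase to cut and tag DNA free of nucleosomes. Open sites are promoters, enhancers and insulators, the stretches where transcription factors bind. Ionising radiation breaks both strands of DNA, and the repair of a break involves local loosening and later restoration of chromatin. The DNA damage response also changes transcription through factors such as p53, and such changes can open or close regulatory sites. Most breaks are rejoined within hours of exposure, so cells collected a day later are past the acute phase of repair. The authors called open sites (peaks) on build hg19 for every library separately. A peak carries a fold enrichment and a −log10 p, both relative to the background of its own library.

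Members were found by the names of the samples and their peaks on chromosomes 1 to 22. The irradiated lists held 21955 peaks (replicate 1) and 41874 peaks (replicate 2), and the unirradiated lists 40842 (replicate 1) and 22860 (replicate 2). One list of each dose was thus long and the other short. The 2 long lists are 8 Gy replicate 2 and 0 Gy replicate 1, and the 2 short lists are 8 Gy replicate 1 and 0 Gy replicate 2. The lowest background in a list, a measure of depth, was 1.28 and 0.621 reads in the 8 Gy libraries (replicates 1 and 2) and 0.809 and 0.605 reads in the 0 Gy libraries. At regions called in all 4 lists, the median summit held 21.1 and 59.6 times this background in the 8 Gy libraries, and 49.4 and 34.7 times in the 0 Gy libraries. The short lists were therefore those of lower enrichment, and the 8 Gy short list also had the highest background. None of the whole-list measures separated the doses. The number of peaks averaged 31915 ± 14085 at 8 Gy and 31851 ± 12715 at 0 Gy (SD, n = 2 each, exact two-sided permutation p = 1). Median peak width was 436 ± 3.89 bp at 8 Gy and 427 ± 25.5 bp at 0 Gy (SD, n = 2 each, exact permutation p = 1), and the covered length was 16.4 ± 7.61 Mb at 8 Gy and 16.1 ± 7.81 Mb at 0 Gy (SD, n = 2 each, exact permutation p = 0.667). With 2 libraries against 2 no exact p can fall below 0.3333, and all 5 adjusted values were 1.

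Merging the 4 lists wherever peaks shared at least 1 bp gave 54296 regions. Of these, 14159 (26.1%) were called in all 4 lists, 8768 (16.1%) in 3, 11389 (21.0%) in 2 and 19980 (36.8%) in 1. Regions called in both 8 Gy lists and in no 0 Gy list (gained regions) numbered 572, which is 1.05% of all merged regions. Regions with the reverse pattern (lost regions) numbered 777, or 1.43%. The largest class of regions called in exactly 2 lists followed list length and not dose: 8698 regions were called in the 2 long lists alone, one of each dose. A further 839 were called in 8 Gy replicate 2 and 0 Gy replicate 2 alone, and 440 in 8 Gy replicate 1 and 0 Gy replicate 1 alone. These 1279 regions, open in one long and one short list of different dose, compare with 1349 gained or lost regions, which are also open in one long and one short list. The number of regions that followed dose was thus close to the number that went against it. A region's own exact p cannot go below 0.3333, so no single gained or lost region was tested. A rule over 3 lists is easier to meet, and both counts rose whichever library was left out. Without the short 8 Gy library 9055 regions met the rule for gained, against 2710 without the long 8 Gy, 4407 without the long 0 Gy and 790 without the short 0 Gy library. Lost regions numbered 934 without the short 8 Gy library, 5414 without the long 8 Gy, 2433 without the long 0 Gy and 8611 without the short 0 Gy library.

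**Figure D1:**
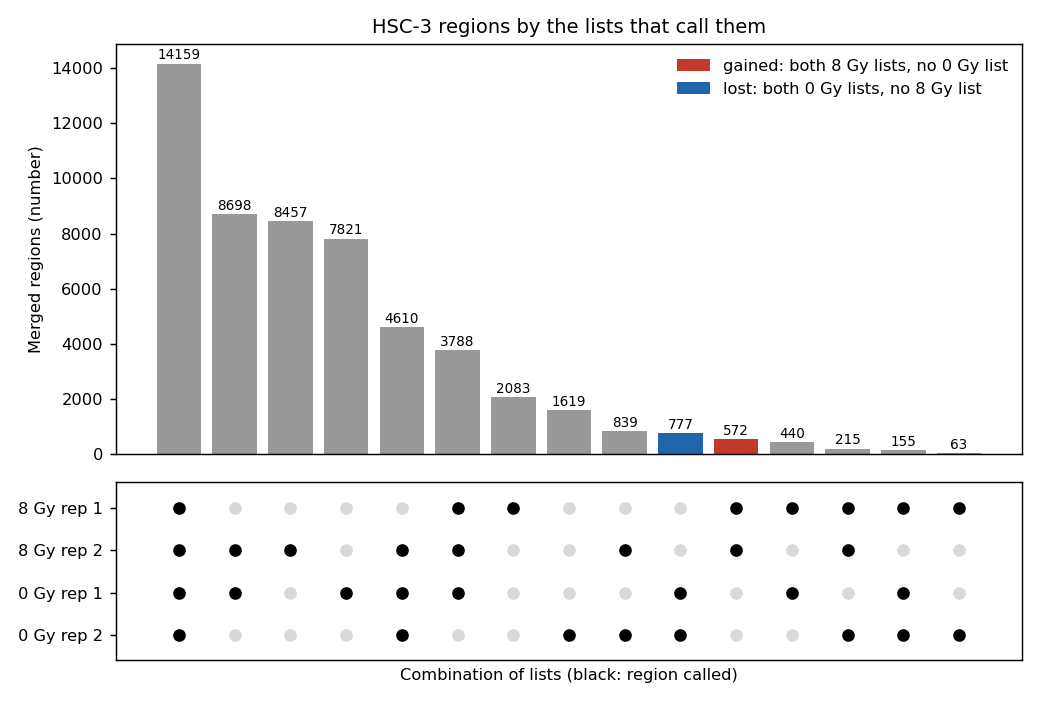
Number of merged HSC-3 regions (y axis) for each of the 15 combinations of lists that call them, with the calling lists marked in black under each bar. Gained regions (red, 572) and lost regions (blue, 777) are among the small classes, below the 8698 regions of the 2 long lists alone and close to the 839 and 440 regions that join a long and a short list of different dose.

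Comparing lists of like length gave the same picture. Of the peaks of the long 8 Gy list, 75.8% (95% exact binomial interval 75.4 to 76.2%, counting error only) overlapped a peak of the long 0 Gy list. In the other direction 77.4% (77.0 to 77.8%) of the long 0 Gy peaks overlapped one of the long 8 Gy list. For the short lists these shares were 67.1% (66.4 to 67.7%) of 8 Gy peaks and 64.8% (64.2 to 65.4%) of 0 Gy peaks. There is 1 library per dose in each pair, so neither comparison has a replicate check.

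The peaks that the doses did not share were mostly weak. Every one of the 4186 peaks in the strongest decile of the long 8 Gy list was also in the long 0 Gy list, and every one of the 4087 in the strongest decile of the long 0 Gy list was in the long 8 Gy list. In the weakest decile the shares were 34.7% for the long 8 Gy list and 38.5% for the long 0 Gy list. In the short lists, 5 of 2196 peaks in the strongest decile of the 8 Gy list and 21 of 2289 in that of the 0 Gy list were missing from the other dose. Peaks unique to a dose in the long pair had a median of 12 summit reads at 8 Gy and 14 at 0 Gy, against 24 and 26 for the shared peaks of the same lists. They were also narrower, with a median width of 342 bp at 8 Gy and 341 bp at 0 Gy, against 495 and 497 bp for shared peaks.

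**Figure D2:**
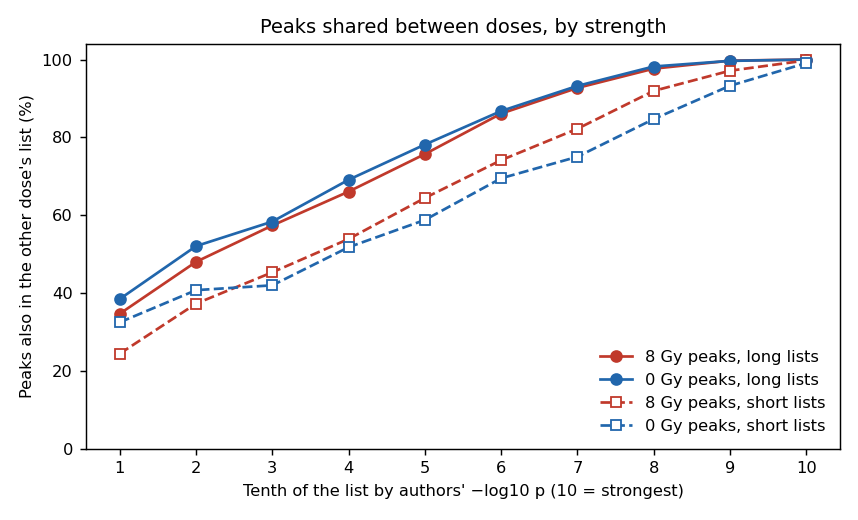
Percentage of peaks that overlap a peak of the other dose's list (y axis) by decile of the list in the authors' −log10 p (x axis, 10 is the strongest decile). Filled circles are the 2 long lists and open squares the 2 short lists. Sharing is 34.7% and 38.5% in the weakest decile of the long 8 Gy and 0 Gy lists and 100% in the strongest decile of both, and the short lists lie below the long ones in each decile.

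Of the strongest peaks in one long list and not the other, 5 are described next, of which 3 were called in the short list of the dose that lacked them. Over all 10083 regions called at 8 Gy only in the long pair, 8.32% were in the short 0 Gy list alone and 2.13% in both short lists. Over the 9193 called at 0 Gy only, 4.79% were in the short 8 Gy list alone and 1.69% in both. Gene positions beside the regions below are general knowledge of hg19. The order of the named neighbours was looked up in RefSeq's gene table for GRCh38.p14, whose coordinates were not used. The region chr9:119674069-119674598, within ASTN2 (a protein of neuronal migration), ranked at the 87.2 percentile of the long 8 Gy list with 35 summit reads and was absent from the long 0 Gy list. It had 18 reads in the short 8 Gy list and 10 reads in the short 0 Gy list, so it was open at both doses. Likewise chr16:75972619-75973118 had 30 reads in the long 8 Gy list, 18 in the short 8 Gy list and 13 in the short 0 Gy list. The third of these leading regions, chr16:71372024-71372507, was in neither 0 Gy list and is thus also a gained region. It lies between CMTR2 (an mRNA cap methyltransferase) and CALB2 (the calcium-binding protein calretinin).

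The reverse case was alike. The region chr8:80785542-80786008 was in the long 0 Gy list and not in the long 8 Gy list. It lies between HEY1 (a Notch target repressor) and MRPS28 (a mitochondrial ribosomal protein), and had 17 reads in the short 8 Gy list against 47 and 12 reads in the 0 Gy lists (replicates 1 and 2). The region chr20:47562398-47562820, within ARFGEF2 (which activates ARF GTPases in vesicle transport), was called in the long 0 Gy list alone, with 39 reads.

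In the short pair the leading differences were regions that both long lists called. The 8 Gy short list called chr20:56963910-56964778, at the start of VAPB (a membrane protein of the endoplasmic reticulum), with 44 reads. The short 0 Gy list lacked it, yet the long lists had 61 reads at 8 Gy and 51 at 0 Gy. The same held for chr4:15002898-15004494, at the start of CPEB2 (an mRNA-binding regulator of translation), with 53 and 72 reads at 8 Gy (replicates 1 and 2) and 69 at 0 Gy in replicate 1. In the other direction the short 8 Gy list lacked chr1:203632355-203632928, within ATP2B4 (a plasma membrane calcium pump), which had 43 reads in the long 8 Gy list against 25 and 40 reads in the 0 Gy lists. It also lacked chr11:71163934-71164748, at the start of NADSYN1 (the last enzyme of NAD synthesis), with 65 reads in 8 Gy replicate 2 against 50 and 44 reads at 0 Gy. The third was chr5:132759053-132759786, within FSTL4 (a follistatin-like protein), with 40 reads in 8 Gy replicate 2 against 38 and 37 at 0 Gy. All 5 of these regions were called at both doses in the long pair.

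The 2 pairs of lists share no library, so the direction in one can be set beside that in the other. They are not plain repeats, since library quality differed in opposite directions. Enrichment differed (8 minus 0 Gy) by 10.2 in the long pair and -13.6 in the short pair, and background by -0.189 and 0.674 reads. Dose and library quality cannot be told apart within a pair. The long lists differed at 10083 regions called at 8 Gy only (20.0% of the regions of either list) and 9193 called at 0 Gy only (18.2%). The short lists differed at 6883 regions called at 8 Gy only (23.5%) and 7845 called at 0 Gy only (26.8%). Most differences of the long pair could not be followed, since 83.9% of its 8 Gy-only and 85.1% of its 0 Gy-only regions were in neither short list. Of the 10083 regions open only at 8 Gy in the long pair, 572 were open only at 8 Gy in the short pair as well, and 839 only at 0 Gy. Of the 9193 open only at 0 Gy, 777 were again open only at 0 Gy, and 440 only at 8 Gy. Among the 2628 regions with a direction in both pairs, 1349 (51.3%) had the same one and 1279 the opposite one. The odds of being open at 8 Gy in the short pair were 1.20 times higher for 8 Gy-only than for 0 Gy-only regions of the long pair. Regions are not replicates, so these counts describe the 4 lists and carry no p.

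Gained and lost regions rested on few reads. In gained regions the median summit pileup was 16 reads in 8 Gy replicate 1 (quartiles 14 and 20) and 15 reads in 8 Gy replicate 2 (11 and 20). In lost regions it was 16 reads in 0 Gy replicate 1 (12 and 20) and 12 reads in 0 Gy replicate 2 (10 and 15). Regions joining a long and a short list of different dose had similar medians, of 16 and 14 reads at 8 Gy and 15 and 11 at 0 Gy. Few reads were thus not particular to gained and lost regions. Regions called in all 4 lists had medians of 27 and 37 reads at 8 Gy and 40 and 21 reads at 0 Gy. The smallest pileup that was called at all was 8 and 5 reads in the 8 Gy lists and 6 and 5 reads in the 0 Gy lists. A site with fewer reads is not in a list, so a region missing from a list was below detection there and not shown to be closed. By strength within their own lists, gained regions had a median percentile of 27.6 and lost regions 29.0. Regions joining a long and a short list of different dose had 25.9, and regions called in all 4 lists 70.5. Above the 50th percentile were 45 gained (7.87%) and 87 lost regions (11.2%), where regions joining a long and a short list of different dose had 8.68%.

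**Figure D3:**
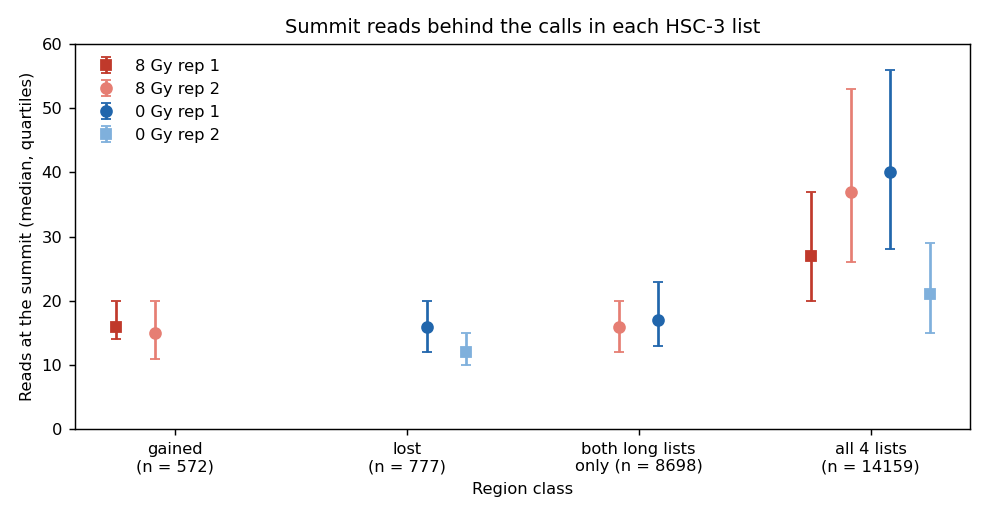
Reads at the summit (median with quartiles, y axis) in each HSC-3 list for 4 classes of region. Gained and lost regions have medians of 12 to 16 reads, near the 16 and 17 reads of the 2 long lists alone and below the 21 to 40 reads of regions called in all 4 lists.

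In width, gained and lost regions lay close to the other regions called in 2 lists and below those called in all 4. The median width was 445 bp for gained regions (quartiles 379 and 549) and 409 bp for lost regions (367 and 484). Regions joining a long and a short list of different dose had 421 bp (373 and 530), regions called in 1 list 335 bp and regions called in all 4 lists 768 bp. A merged region spans all peaks joined in it, so its width can grow with the number of lists that call it. Single peaks had median widths of 409 to 445 bp in the 4 lists. Regions wider than 1000 bp made up 0.524% of gained and 0.386% of lost regions, against 23.9% of those called in all 4 lists. Measured to the closest region that all 4 lists called, the median distance was 36.2 kb for gained regions (quartiles 14.9 and 93.5), 42.7 kb for lost regions (17.1 and 95.2), 37.6 kb for the regions called in all 4 lists themselves (16.3 and 83.1) and 41.7 kb over all merged regions (17.1 and 96.9). These distributions largely overlapped. A peak of the other dose lay within 1000 bp of 123 gained regions (21.5%) and of 76 lost regions (9.78%). This share was not measured for other classes of region, so it has no base rate, and the lists searched differ between the 2 classes. Such a neighbouring peak could itself be one called at a single dose.

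The strongest gained region was chr4:165125509-165126034 (526 bp), within MARCHF1, a ubiquitin ligase that removes MHC class II molecules from the cell surface. It had 21 and 27 summit reads in the 8 Gy lists (replicates 1 and 2), an authors' fold of 9.02 and 12.6, and was called in neither 0 Gy list, where the nearest peak was 7320 bp away. Next came chr16:71372024-71372507, between CMTR2 and CALB2 as above, with 21 and 43 reads. The third was chr20:58406043-58406513, within PHACTR3 (a regulator of protein phosphatase 1 and actin), with 30 and 34 reads. The fourth was chr5:96216059-96216453, within ERAP2, the aminopeptidase that trims peptides for MHC class I, with 27 and 25 reads and a 0 Gy peak at 726 bp. All 4 were detected in both 8 Gy lists with more than 20 reads each.

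The other 6 gained regions named by strength had 15 to 25 reads in 8 Gy replicate 1 and 19 to 36 in replicate 2. At chr19:4145583-4146159, between MAP2K2 (the kinase MEK2) and CREB3L3 (a membrane-bound transcription factor), a 0 Gy peak lay 377 bp away. At chr6:27144613-27145203, in the histone and tRNA gene cluster between H2AC12 (a histone H2A gene) and PRSS16 (a thymic protease), one lay 193 bp away. The region chr1:161582423-161582847 lies in the duplicated Fc gamma receptor segment near FCGR2C and FCGR3B, where reads can map to more than one copy, so its call is uncertain. The rest were chr15:56352663-56353073, between NEDD4 (a ubiquitin ligase) and RFX7 (a transcription factor of the p53 network), chr11:36376136-36376671, within PRR5L (a subunit of the kinase complex mTORC2), and chr14:55679470-55680216, between DLGAP5 (a mitotic spindle protein) and FBXO34 (an F-box protein). The nearest 0 Gy peaks of these 3 lay 7679, 6913 and 20554 bp away.

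The strongest lost region was chr10:82258506-82258905 (400 bp), within TSPAN14, a tetraspanin that controls the sheddase ADAM10. It was called in neither 8 Gy list and had 58 and 38 summit reads in the 0 Gy lists (replicates 1 and 2), the most of any lost region in replicate 1 and tied for the most in replicate 2. Its local background was 11.6 and 8.73 times the lowest of those lists, and an 8 Gy peak lay 3222 bp away. The same pattern of many reads over a raised background was seen at chr10:87403640-87403988, within GRID1 (a glutamate receptor subunit), with 44 and 38 reads at 9.93 and 8.83 times the lowest background and an 8 Gy peak at 753 bp. It was also seen at chr12:123371755-123372353, within VPS37B (a subunit of the ESCRT-I sorting complex), with 45 and 29 reads at 7.23 and 5.21 times the lowest background and an 8 Gy peak at 346 bp. A raised background was not particular to lost regions. It was above 3 times the lowest at 20.6% and 35.7% of gained regions in the 8 Gy lists (replicates 1 and 2). For lost regions the shares were 21.4% and 19.4% in the 0 Gy lists. Over all merged regions called in each list the shares were higher. They were 31.5% and 46.8% in the 8 Gy lists and 42.8% and 41.0% in the 0 Gy lists. A high local background raises the reads needed for a call, and it was not tested how far this bears on the missing 8 Gy calls.

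Among the strongest lost regions 2 lay at gene starts, over a lower background. The region chr15:57998531-57999008, at the start of POLR2M (a subunit bound to RNA polymerase II), had 31 and 15 reads in the 0 Gy lists, at 1.96 and 1.54 times the lowest background. The nearest 8 Gy peak was 65665 bp away. The region chr6:36164587-36165371 (785 bp), at the start of BRPF3 (a scaffold of histone acetyltransferase complexes), had 32 and 18 reads in the 0 Gy lists, at 3.52 and 2.23 times the lowest background. Here a peak of an 8 Gy list lay 121 bp away, so that list had an open site beside the lost stretch. At chr8:37898897-37899341, within EIF4EBP1 (a repressor of cap-dependent translation), the 0 Gy lists had 29 and 20 reads. At chr5:1174363-1174891, between SLC12A7 (a potassium-chloride cotransporter) and SLC6A19 (an amino acid transporter), they had 38 and 30, again over a raised background (6.45 and 6.40 times).

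The remaining 3 lost regions named by strength stood between genes and had 18 to 27 reads in 0 Gy replicate 1 and 16 to 19 in replicate 2. They were chr15:48973021-48973505, between FBN1 (fibrillin-1 of the extracellular matrix) and CEP152 (a centrosome protein), chr9:12748011-12748485, between TYRP1 (a melanin enzyme) and LURAP1L, and chr13:80310353-80310956, between NDFIP2 (an adaptor of NEDD4-type ligases) and SPRY2 (an inhibitor of receptor tyrosine kinase signalling). The last of these was far from any 8 Gy peak, at 43025 bp. The region beside TYRP1 was 26381 bp from one, and the region between FBN1 and CEP152 was 1617 bp from one.

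Gained and lost regions were spread over all 22 chromosomes. The median distance from a gained region to the next was 1428 kb, and from a lost region to the next 966 kb. The tightest 3 gained regions spanned 61.1 kb at chr6:116771919-116832991, around CALHM6 (a calcium homeostasis modulator) and TRAPPC3L (a vesicle tethering factor). The next spanned 137 kb at chr1:56974214-57111418, from PLPP3 (a lipid phosphatase) to the start of PRKAA2 (a catalytic subunit of AMP-activated kinase). The third spanned 361 kb at chr6:27473344-27834188, again in the histone and tRNA gene cluster, and held 30 regions of any kind. The tightest 3 lost regions spanned 59.9 kb at chr2:153263807-153323719, within FMNL2 (a formin that builds actin filaments). The next spanned 69.1 kb at chr2:12626661-12695742, between LPIN1 (a lipid phosphatase) and TRIB2 (a pseudokinase), and 120 kb at chr8:89132225-89252557, within MMP16 (a membrane-type matrix metalloproteinase). The MMP16 span held 0 regions called in all 4 lists among its 6.

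Per 100 merged regions, gained regions ranged from 0.754 on chromosome 11 to 1.69 on chromosome 15, and lost regions from 0.817 on chromosome 19 to 2.39 on chromosome 18. Lost regions outnumbered gained ones on 17 of 22 chromosomes. The reverse was seen on chromosome 14 (24 gained, 19 lost), chromosome 15 (25 and 14) and chromosome 19 (18 and 14), and the counts were equal on chromosomes 20 and 22.

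**Figure D4:**
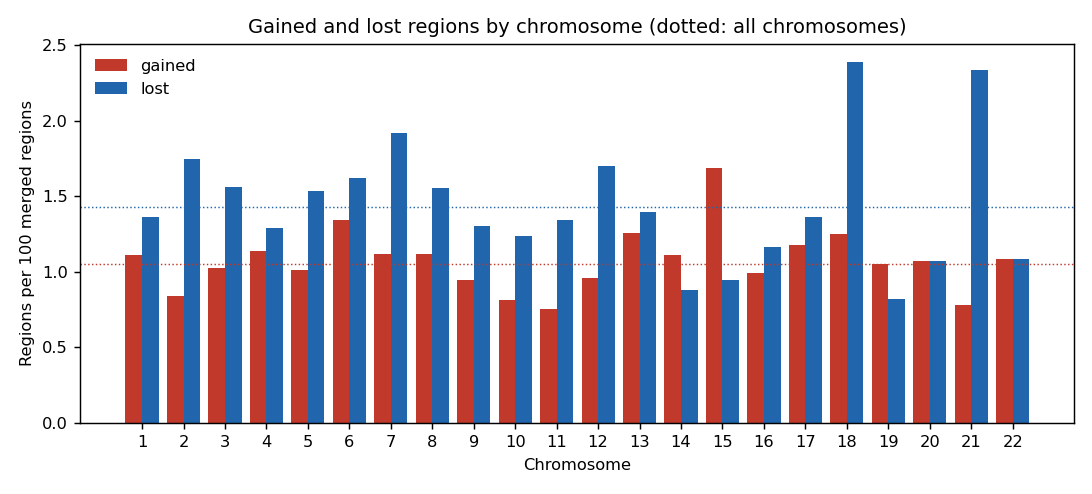
Gained (red) and lost (blue) regions per 100 merged regions (y axis) on each chromosome, with dotted lines at 1.05 and 1.43 for all chromosomes. Chromosome 15 has the highest rate of gained regions (1.69), and chromosomes 18 and 21 the highest rates of lost regions (2.39 and 2.33).

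The share of a list's peaks on each chromosome also showed little of dose. On 3 of 22 chromosomes (13.6%) the 2 values of one dose lay above both of the other. Any 4 distinct values are kept apart by dose in 0.3333 of the possible assignments of 2 lists to each dose. Chromosome 3 held 6.19% and 6.58% of peaks in the 8 Gy lists and 6.62% and 6.87% in the 0 Gy lists. Chromosome 7 held 4.99% and 5.03% at 8 Gy and 5.04% and 5.11% at 0 Gy, and chromosome 20 held 3.15% and 3.13% at 8 Gy and 3.04% and 3.01% at 0 Gy. The exact permutation p (two-sided) was 0.3333 for all 3, the floor of a design of 2 against 2, and 1 after adjustment over 22 chromosomes. With all 4 lists held to 21955 peaks, 10 chromosomes did not overlap between doses. Chromosomes 3 and 20 were among them, and chromosome 7 was not.

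The order of strength among regions open in every list was compared next. The 14159 regions called in all 4 lists were ranked by the authors' −log10 p within each list, as percentiles among these same regions. The correlation of ranks was 0.74 between the 2 irradiated lists, 0.68 between the 2 unirradiated lists, 0.80 between the 2 long lists and 0.64 between the 2 short lists. These values describe regions within single libraries and have no p. The shift from 0 to 8 Gy in the long pair was nearly unrelated to the shift in the short pair (r = 0.03 over 14159 regions, which share their chromatin and the peak caller), and 50.9% of regions moved the same way in both. Regions whose 2 ranks at one dose lay above both at the other numbered 2400 higher after 8 Gy (17.0%) and 2296 lower (16.2%). Together they made up 33.2% of the regions. For any 4 distinct ranks, 0.3333 of the possible assignments of 2 lists to each dose keep the doses apart. A limma test on normal scores of the ranks called 0 regions higher (0%) and 0 lower (0%) at an adjusted p of 0.05. At an unadjusted p under 0.05 it had 620 regions (4.38%), of which 269 were higher and 351 lower. With the pair of lists (long or short) as a block, a fit with 1 residual degree of freedom, limma called 2 regions higher and 2 lower at an adjusted p of 0.05.

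**Figure D5:**
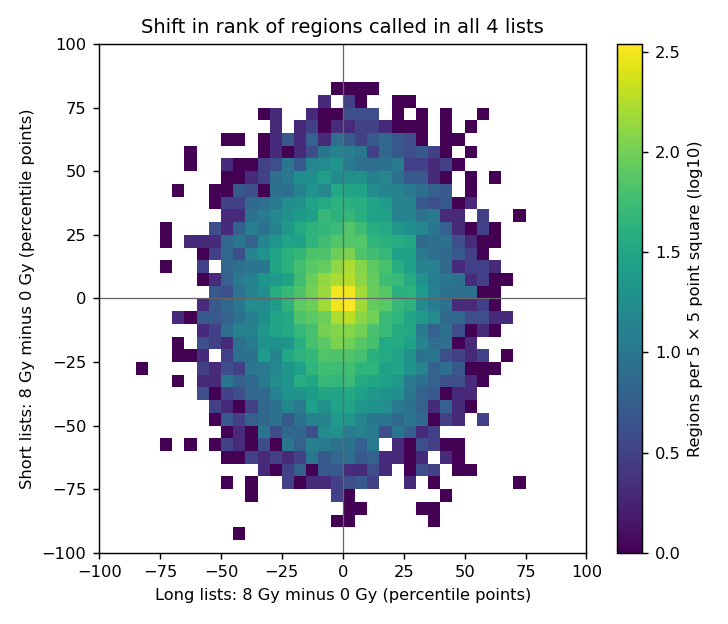
Shift in percentile rank, 8 Gy minus 0 Gy, of the 14159 regions called in all 4 lists, in the 2 long lists (x axis) and the 2 short lists (y axis). Colour gives the number of regions per square on a log10 scale, and the cloud is centred on 0 with almost no slope (r = 0.03).

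The regions with the widest separation of ranks were as follows, none of them past the test without a block. At chr1:97186955-97188114, the start of PTBP2 (a splicing regulator), the percentiles were 67.2 and 55.8 in the 8 Gy lists and 6.23 and 3.22 in the 0 Gy lists. The summits held 32 and 40 reads at 8 Gy and 21 and 10 at 0 Gy, and the difference in normal scores was 1.99 ± 0.430 (SE, limma adjusted p = 0.978). At chr1:43672351-43673550, within CFAP57 (a cilium protein), the percentiles were 76.7 and 81.4 at 8 Gy and 23.7 and 1.88 at 0 Gy (limma adjusted p = 0.978, and 0.0427 with the pair of lists as a block). The other regions with higher ranks after 8 Gy lay between WDR70 (a factor of DNA end resection) and GDNF (a neurotrophic factor), between KLF13 (a transcription factor) and OTUD7A (a deubiquitinase), and within XRN2 (a nuclear exonuclease that ends transcription). Their ranks in the 8 Gy lists were 72.6 to 83.3 and in the 0 Gy lists 5.82 to 31.7.

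In the opposite direction, chr13:95293569-95294266, between GPR180 and SOX21 (a SOX family transcription factor), had percentiles of 13.2 and 14.8 at 8 Gy and 86.4 and 72.7 at 0 Gy. Its summits held 13 and 21 reads at 8 Gy and 54 and 22 at 0 Gy, and the difference in normal scores was -1.93 ± 0.434 (SE, limma adjusted p = 0.978). At chr2:47212201-47212688, within TTC7A (a scaffold of phosphatidylinositol kinase), the percentiles were 3.07 and 10.04 at 8 Gy and 71.0 and 59.4 at 0 Gy. The other 3 lay between LHX9 (a LIM homeobox factor) and NEK7 (a mitotic kinase), within CLCN1 (a chloride channel), and between DUSP1 (a stress-induced phosphatase of MAP kinases) and ERGIC1 (a protein of the secretory pathway). Their ranks were 1.86 to 13.2 at 8 Gy and 51.4 to 76.0 at 0 Gy. The groups do not overlap at any of these 10 regions by the way they were chosen.

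KOSC-2 lists, which played no part in choosing the regions, were used as an independent readout. Of the 572 gained HSC-3 regions, 63.6% and 48.1% were called in the KOSC-2 8 Gy lists (replicates 1 and 2) and 43.4% and 48.6% in the KOSC-2 0 Gy lists. Of the 777 lost regions, 62.2% and 48.8% were called in the KOSC-2 8 Gy lists and 48.9% and 55.3% in the 0 Gy lists. The difference of 8 minus 0 Gy was 9.88 percentage points for gained regions (exact two-sided permutation p = 0.667) and 3.35 for lost regions (p = 1, exact). It was 8.50 points for regions called in the 2 long HSC-3 lists alone and 6.77 points for regions called in 1 list, classes that carry no call at both libraries of a dose. Over all HSC-3 regions it was 4.56 points, and the KOSC-2 8 Gy replicate 1 list was the longest with 50448 peaks. In a comparison added after these values were seen, the 4 KOSC-2 lists were held to 21955 peaks each and the HSC-3 regions were kept. The 572 gained regions were then called at 20.6% and 21.5% in the KOSC-2 8 Gy lists and 18.0% and 18.4% in the 0 Gy lists, a difference of 2.88 points. The 777 lost regions were called at 19.7% and 18.9% in the 8 Gy lists and 26.3% and 20.3% in the 0 Gy lists, a difference of -3.99 points. With all 8 lists held to 21955 peaks, the rule gave another set of 771 gained and 977 lost regions, for which the differences were 4.60 and -6.45 points. In these 4 comparisons, which share the same 4 KOSC-2 libraries, the doses did not overlap. The exact permutation p was 0.3333, the smallest that 2 against 2 libraries allow. Regions called in 1 HSC-3 list also had the doses apart under both settings, by 0.881 and 0.543 points. Regions of a long and a short list of different dose differed by -0.156 and -0.310 points, and their doses overlapped. At a −log10 q of at least 5 in every list, the 494 gained regions also had the doses apart, by 10.9 points (exact permutation p = 0.3333). The 724 lost regions of that setting differed by 3.66 points with overlapping doses, and all regions by 5.06 points. In all, 142 gained (24.8%) and 164 lost regions (21.1%) were called in no KOSC-2 list, beside 23.3% of all HSC-3 regions. Among regions called in all 4 HSC-3 lists the share was 1.65%.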

How the data were processed

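Peak lists of 4 HSC-3 libraries, and of 4 KOSC-2 libraries as a second readout, were used as deposited, one list per library. Per the submitters' processing notes, the build was hg19 and the tools, named without roles, were MACS2 2.2.6, deepTools, SAMtools 1.9, Bowtie2 2.3.4.2 and FastQC 0.11.7. The handling of duplicates, blacklisted regions and the Tn5 shift is not given in the sources used here. For each peak the authors deposited a score, a fold ratio, a −log10 p-value, a −log10 q-value and a summit position. Fold and p together fix the whole number of summit reads and the background (checked to within 0.0001 of −log10 p for 100% of peaks). They were compared between lists only as counts behind a call or as ranks. Read totals are not used here. Gene names beside regions are general knowledge of hg19, since no annotation of that build was at hand, and no sequence is shown for the same reason.

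Peaks on chromosomes 1 to 22 were merged where they shared 1 bp. Whole-list values were compared by exact permutation tests, and ranks with limma 3.58.1 in R 4.3.3, both adjusted by the Benjamini-Hochberg method. Scripts used Python 3.11.15, numpy 2.4.6, pandas 2.3.3 and scipy 1.17.1 and were tested on simulated data. Regions named were, by rule, the 10 strongest gained and lost regions by mean percentile within their lists, the 5 widest separations of rank each way, the 3 strongest differences within each pair of lists, and the 3 tightest groups of 3 regions. Regions that fall under items withheld here are not reported. Members and rules were chosen with earlier results of these data known. Alternatives were lists of equal length, a −log10 q of 5 or more, 50% coverage, merging across 100 bp, peaks above the 50th percentile, other scales of rank, blocks and leaving out libraries.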

Additional observations from a re-analysis of the deposited data

How the results depend on the processing

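When peaks had to lie above the 50th percentile of a list, 18 gained and 43 lost regions were counted in place of 572 and 777. Leaving out 1 HSC-3 library gave 790 to 9055 gained and 934 to 8611 lost regions, since a rule over 3 lists is easier to meet. Under a −log10 q of at least 5, lists of equal length, 50% coverage or merging across 100 bp, both counts were within 1.5 times. With all 4 lists of equal length, however, 126 (22.03%) of the gained and 202 (26.0%) of the lost regions were the same ones.

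Overlap of the long lists (8 Gy peaks, then 0 Gy peaks) was 77.0% and 77.9% at a −log10 q of at least 5, 77.0% and 76.7% at equal length and 73.9% and 75.6% with 50% of the peak covered. For the short lists it was 68.7% and 66.2%, 66.1% and 66.4%, and 63.0% and 62.8%. Regions with the same direction in both pairs were 51.1% to 52.2%.

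The difference in peak number (8 minus 0 Gy) turned to -140 at a −log10 q of at least 5. Without 1 library it ran from -9896 to 10023, that of median width from -9.25 to 26.8 bp, of covered length from -5.19 to 5.85 Mb, of background from -0.0865 to 0.572 reads and of enrichment from -21.0 to 17.5. Chromosomes without overlap between doses numbered 10 with lists of equal length and 10 to 16 without 1 library, in place of 3. Without 1 library, 2 values stand against 1, and a lack of overlap is then easier to meet. The difference for lost regions in KOSC-2 lists turned to -3.99 points when only the KOSC-2 lists were held to equal length, an alternative chosen after seeing the data. It was -6.45 points with all 8 lists of equal length, which also changes the set of lost regions, and ran from -3.35 to 10.04 without 1 KOSC-2 library, and that for gained regions from 2.10 to 17.7.

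With the pair of lists (long or short) as a block, limma called 2 regions higher after 8 Gy, chr1:43672351-43673550 (adjusted p = 0.0427) and chr16:2653136-2653839 (0.0172), and 2 lower, chr10:89912409-89912953 and chr11:95186874-95187350 (both 0.00081). That fit has 1 residual degree of freedom, and so has the fit with the replicate numbers as a block. The chr11 region had percentiles of 0.0247 and 0.00706 at 8 Gy (replicates 1 and 2) and 9.99 and 20.0 at 0 Gy. Its summits held 10 and 10 reads at 8 Gy and 18 and 13 at 0 Gy. The chr10 region had percentiles of 4.01 and 1.92 at 8 Gy and 43.6 and 96.1 at 0 Gy. The chr16 region had 60.8 and 18.8 at 8 Gy and 0.113 and 1.31 at 0 Gy. Its summits held 21 and 18 reads against 8 and 7. In every other setting that kept all 4 libraries, 0 regions were called. With the replicate numbers as a block, limma also called 0 (adjusted p of at least 0.9995) and the peak number again differed by 63.5 (exact p = 1). The labels do not say that a number marks a shared culture or day, and same-numbered libraries did not deviate together (correlation -0.0640).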
